A study of Sorghum bicolor with 96 samples.

Results

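The genes described here had transcripts that were higher after 1 h of cold given early in the day (ZT1). Their difference after cold at each later time tested stayed under a set limit, and their difference after heat at ZT1 stayed within another. They numbered 45 of the 34129 genes in the count table of sorghum leaves, and 16216 genes were abundant enough to be considered. Sorghum bicolor is a cereal of tropical origin. Plants grew with days of 30 °C and nights of 20 °C. Leaves were taken from untreated and from stressed plants. Stressed plants were held for 1 h at 10 °C in a cold experiment or at 42 °C in a heat experiment. The zeitgeber times (ZT, hours after the start of the light period) were 1, 6, 9 and 15, of which ZT15 fell in the night. Comparisons of ZT15 with the other times therefore differ in more than the hour. In the cold experiment the groups were stressed and control leaves of the line RTX430, named by the submitters as thermo-sensitive, and of SC224, named as tolerant. In the heat experiment they were stressed and control leaves of RTX430 and of Macia, named as tolerant, so that 32 groups of 3 biological replicates made 96 libraries. No group carried a transgene or a mutation by its labels, and the design asked how far hour and line alter the response to temperature.

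Chilling is a common limit on cereals of tropical origin, and their leaves are injured at temperatures that temperate cereals tolerate. A drop in temperature reaches the nucleus through calcium and kinase signals that switch on transcription factors, and these in turn act on a wider set of genes. The circadian clock, an internal oscillator set by light and temperature, sets the resting level of many transcripts over the day, and in several plants it also sets how strongly a given cold treatment acts at a given hour, a property called gating. The deposited table names genes by identifier only and gives no function, so the genes are described below by their identifiers and by their behaviour.

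The genes were chosen by measured expression. Counts were scaled to counts per 1e+06 of the library total (CPM), genes with a mean of at least 2 CPM over the 96 libraries were kept, and the mean of each group was taken as log2(CPM + 1) after subtracting the median of all kept genes in that group. The stress difference was the stressed group minus its control. At ZT1 the cold difference was at least 1 on this log2 scale under both line labels for 390 genes. Of these, 129 had all 6 later cold differences under 0.8, and 45 of the 129 also had both heat differences at ZT1 within 1 of 0. The rule allowed up to 150 genes, so the threshold of 1 and not the rank was the boundary. The smaller of the 2 cold differences at ZT1 was 1.04, 1.03 and 1.02 for the 3 genes just inside the boundary, and 0.997, 0.971 and 0.969 for the 3 just outside. Most of the genes sat near that boundary: 32 of the 45 had a smaller difference under 1.5, and 3 had both differences at 2 or more. All cold libraries and the heat libraries of ZT1 were therefore used in the choice, and their values are given as a description. The heat libraries of ZT6, ZT9 and ZT15 played no part in it beyond the abundance minimum.

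The libraries held 1059841 to 11545393 counts, with a median of 3642164.5, and detected 16266 to 23229 genes. All 45 genes passed the filter on low counts in both experiments, with mean levels of 6.39 to 298 CPM and a median count of 61.5 per library. For 5 of them at least 1 group had no library above 3 counts. The label RTX430 did not carry the same expressed genes in the 2 experiments. Between the RTX430 libraries of the cold and of the heat experiment, 250 genes had a median above 3 CPM in one and under 0.05 CPM in the other. The corresponding count was 6 between SC224 of the cold and RTX430 of the heat experiment, and 223 between RTX430 and SC224 within the cold experiment. Line names are used below as labels only, and cold and heat responses under the RTX430 label are not treated as responses of 1 line. In 2 libraries, genes expressed only under another label were also present. Over 59 genes on only in RTX430 of the cold experiment, and over 45 on only in Macia, SC224 control replicate 1 at ZT1 had sums of 130 and 194 CPM, and RTX430 control replicate 1 at ZT15 of the heat experiment had 415 and 300 CPM. All other libraries of other labels had at most 8.84 and 7.89 CPM. Without the SC224 library the rule gave 44 genes, 39 of them among the 45. A heat library of RTX430 at ZT1 (stress replicate 2) carries ZT2 in part of its labels, and without it the rule gave 40 genes, 39 of them shared.

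At ZT1 the median level of the 45 genes was 26.3, 27.5 and 25.96 normalised CPM in the cold-treated RTX430 libraries, against 8.48, 8.47 and 8.85 in their controls, where normalised CPM are CPM on library sizes scaled by TMM (trimmed mean of M values). In SC224 the median was 22.3, 40.3 and 21.3 normalised CPM in cold-treated leaves, against 8.37, 9.001 and 5.38 in controls. Every cold-treated library lay above every control in both lines, which the rule largely fixed. In bulk leaf RNA, more transcript per cell and more cells that hold the transcript cannot be told apart, and the same holds for lower levels. SC224 stress replicate 2 stood above the other cold-treated libraries: 33 of the 45 genes had their highest value of the 3 in it, against 38.99% of the 16216 genes. Leaving it out of the choice gave 40 genes, of which 33 were shared with the 45.

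**Figure D1:**
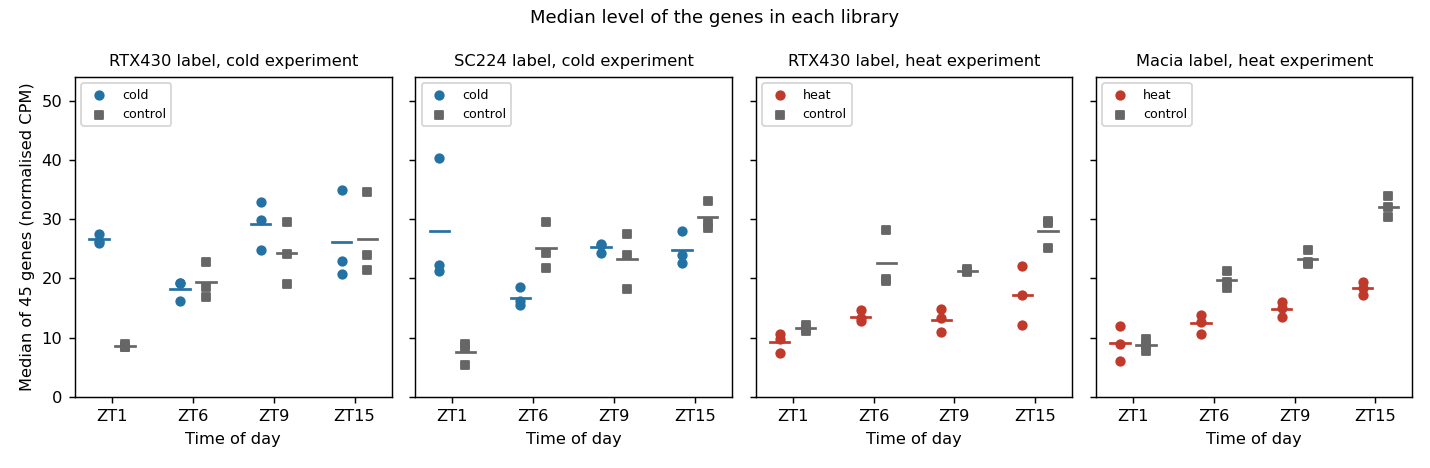
Median normalised CPM over the 45 genes (vertical axis) in each of the 96 libraries, by time of day (horizontal axis); circles are stressed libraries, squares controls, and short bars the means of 3 libraries. Cold-treated libraries stand above controls only at ZT1, while in the heat experiment at ZT6, ZT9 and ZT15 every stressed library stands below every control of its label.

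The stress difference at ZT1 had a median of 1.36 in RTX430 (range 1.02 to 3.14) and of 1.56 in SC224 (range 1.04 to 4.65) on the median-centred log2 scale. In edgeR's quasi-likelihood test with Benjamini-Hochberg adjustment over all genes, 36 of the 45 genes were called as raised at ZT1 in RTX430 (adjusted p under 0.05, as for every call below), where 3.11% of all genes tested were. In SC224 39 were called, where 4.95% of all genes tested were. In a fit to the SC224 libraries of ZT1 alone 13 were called. The 3 cold-treated libraries all exceeded the 3 controls for 43 genes in RTX430, against 11.7% of all genes, and for 40 in SC224, against 10.4%. These counts describe the choice and are no test of it. At the later times, where the rule set only an upper limit, the median difference lay between -0.13 and 0.21 in the 6 contrasts. Single genes reached from -1.64 to 0.79. In RTX430 at ZT6, ZT9 and ZT15, all 3 cold-treated libraries exceeded all 3 controls for 6, 6 and 2 genes. The shares of all genes were 10.4%, 7.09% and 6.47%. In SC224 the counts were 2, 6 and 3, against 8.57%, 10.6% and 9.89%. All 3 lay below all 3 controls for 7, 2 and 7 genes in RTX430, against 13.7%, 5.19% and 5.77%. For SC224 these counts were 3, 1 and 6, against 8.19%, 9.38% and 9.67%. A gene was called in 2 of the 6 later contrasts, in both as lowered. Sobic.009G154600 averaged 9.06 ± 2.21 normalised CPM in cold-treated SC224 leaves at ZT6 and 23.96 ± 5.83 in controls (SD, n = 3 each), where 0.806% of all genes were called as lowered. Sobic.001G489900 averaged 41.3 ± 17.3 normalised CPM in cold-treated RTX430 leaves at ZT15 and 88.6 ± 29.7 in controls (SD, n = 3 each), where 0.214% were. Both were named after their values were seen.

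**Figure D2:**
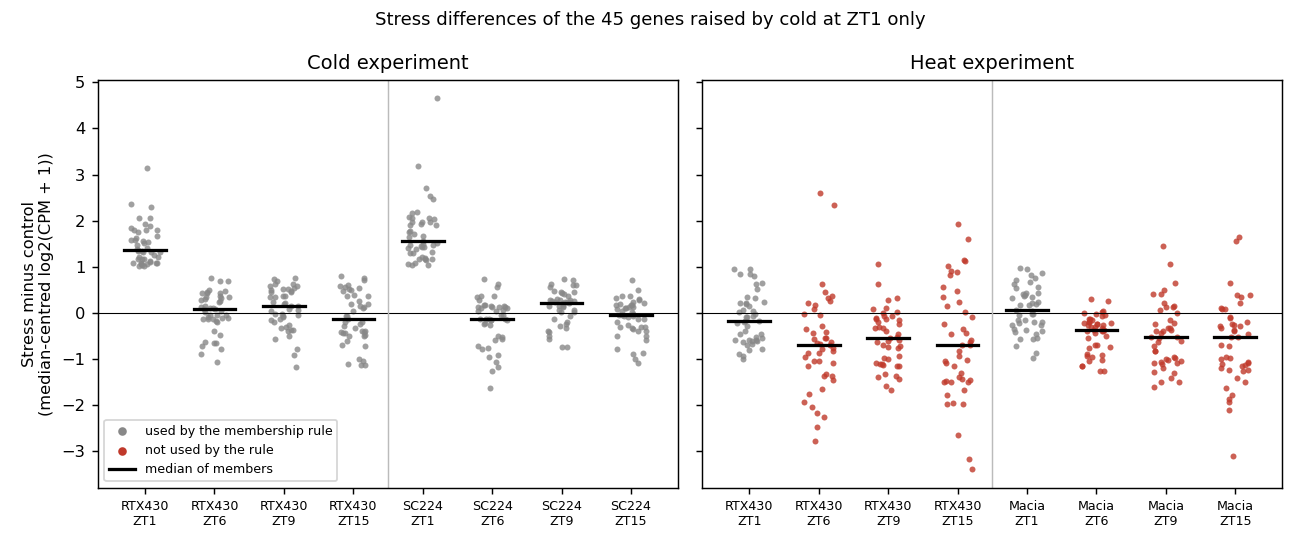
Stress minus control for each of the 45 genes (points) on the median-centred log2(CPM + 1) scale, for each line label and time; grey points were used by the membership rule, red points were not, and black bars are medians over the 45 genes. The red medians lie below 0 in all 6 contrasts, while the grey ones outside cold at ZT1 lie between -0.17 and 0.21.

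Sobic.010G245100 had the largest of the smaller cold differences at ZT1. Its level was 28.7, 37.1 and 25.7 normalised CPM in cold-treated RTX430 leaves, against 1.57, 3.15 and 1.77 in controls, and 39.9, 166 and 27.4 in cold-treated SC224 leaves, against 3.08, 2.06 and 1.66 in controls. No stressed library overlapped a control, and the single SC224 library at 166 raised that group's mean. The log2 fold change was 3.74 (SE 0.64) in RTX430 and 5.11 (SE 0.67) in SC224. The untreated level of this gene differed widely between times: RTX430 controls of the cold experiment held 14.02, 3.88 and 28.2 normalised CPM at ZT6, 48.8, 18.2 and 38.2 at ZT9, and 97.1, 81.7 and 91.2 at ZT15. The cold-treated RTX430 libraries of ZT1 thus fell within the range of the ZT9 controls and below all ZT15 controls.

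Sobic.009G024600 came second by the same measure. It had 161, 194 and 193 normalised CPM in cold-treated RTX430 leaves at ZT1, against 31.1, 33.3 and 43.2 in controls, and 104, 214 and 100 in cold-treated SC224 leaves, against 25.99, 31.1 and 18.2 in controls. The groups did not overlap, and the log2 fold changes were 2.35 (SE 0.29) and 2.47 (SE 0.29). RTX430 controls held 64.5, 139 and 99.9 normalised CPM at ZT6 and 165, 123 and 117 at ZT15. For this gene, 2 of the 3 cold-treated RTX430 libraries of ZT1 stood above every later RTX430 control.

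**Figure D3:**
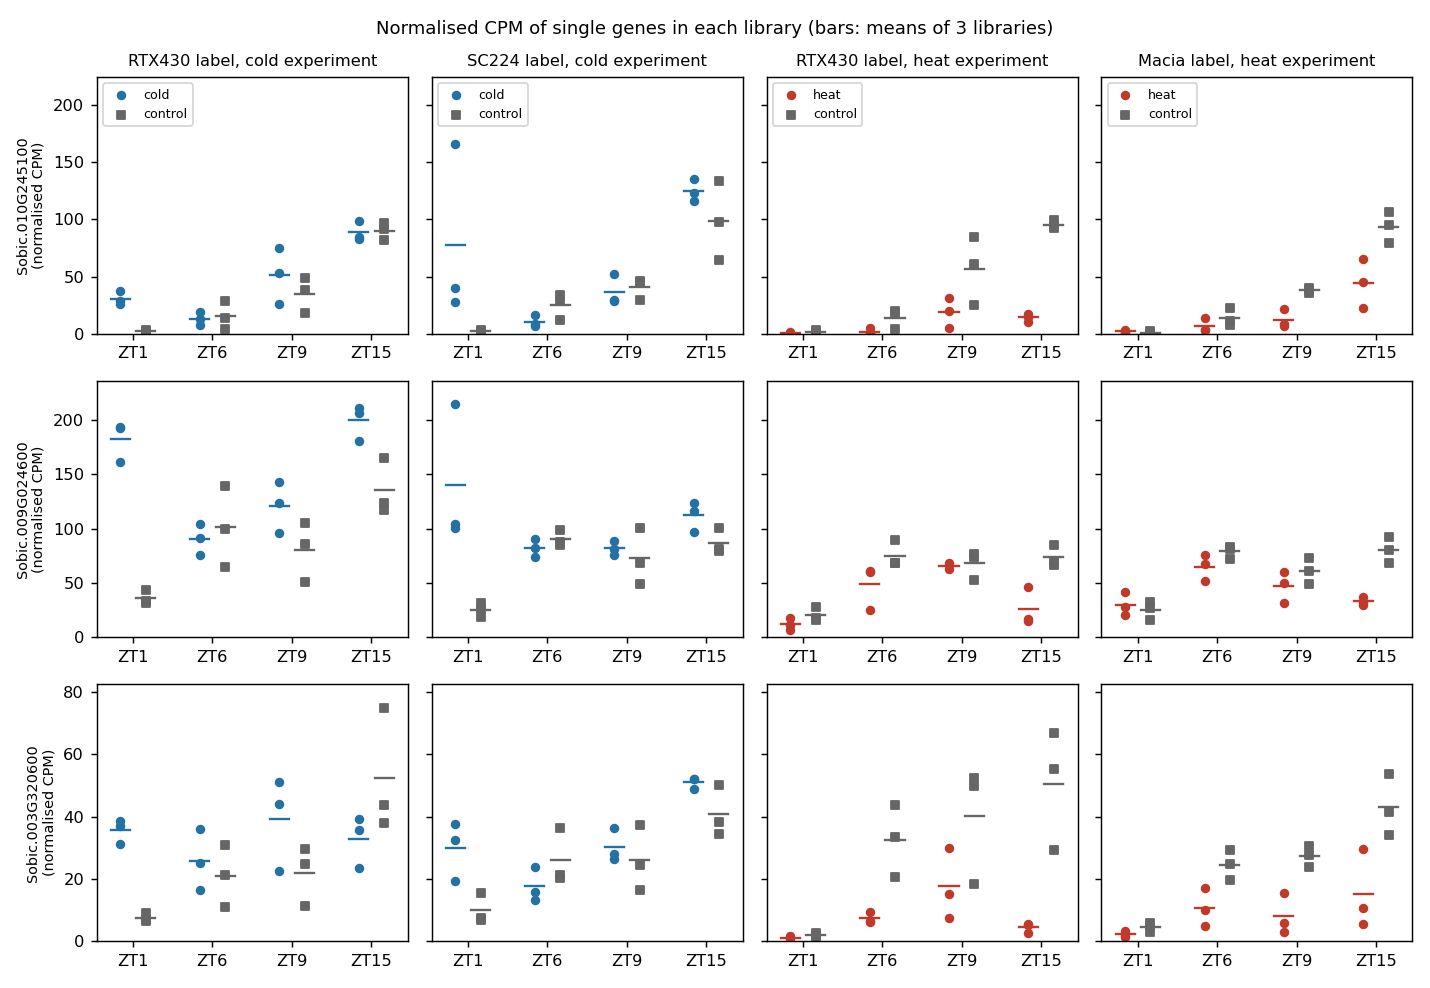
Normalised CPM (vertical axis, from 0) of Sobic.010G245100, Sobic.009G024600 and Sobic.003G320600 (rows) in every library of the 4 label and experiment combinations (columns) by time of day; circles are stressed libraries, squares controls and short bars means of 3. Controls are lowest at ZT1 in each panel, cold-treated libraries of ZT1 stand above their controls, and heat-treated libraries of ZT15 stand below theirs.

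Low untreated levels at ZT1 were shared by much of the group. By the means of normalised CPM, ZT1 was the lowest of the 4 control times for 37 of the 45 genes in RTX430 and 34 in SC224 of the cold experiment, against 38.8% and 37.9% of the 16216 genes. The cold controls of ZT1 entered the rule with the sign that favours low values there. Those of ZT6, ZT9 and ZT15 entered, through the upper limit on the later cold differences, with the sign that favours high values. In the heat experiment, where the ZT1 controls entered only through the limit on the heat difference, ZT1 was the lowest for 29 genes in RTX430 and 30 in Macia, against 34.2% and 35.7% of all. It was the lowest in all 4 control series, the cold series used by the rule included, for 24 of the 45 genes, against 18.4% of all. With scaling by library totals alone the last count was 28, against 31.5% of all. ZT15 was the highest control time for 30 genes in RTX430 and 30 in SC224 of the cold experiment, and for 21 in RTX430 and 29 in Macia of the heat experiment. The shares over all genes were 29.01%, 27.2%, 27.4% and 28.2%. These orders are descriptions without a test.

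The cold-treated mean at ZT1 stood above all 3 later control means for 19 genes in RTX430 and 27 in SC224, against 30.4% and 29.6% of the 16216 genes. It stood below all of them for 7 genes in RTX430 and 5 in SC224, against 39.2% and 34.6%. For the remaining genes it lay among the later control means. The cold-treated libraries of ZT1 entered the rule with the sign that favours high values, as did the later cold controls. The comparison with all genes therefore describes the choice and is no test of it. These counts depended on the scaling, since library totals alone gave 10 and 15 genes above, against 14.3% and 14.9% of all genes, and 14 and 7 below, against 58.1% and 45.2%. Scaling by totals moved the median of all genes by 0.18 in RTX430 and by 0.37 in SC224 on the log2 scale in the cold contrast at ZT1.

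Under heat at the times that the rule did not use, the genes as a group stood lower than in controls. The median of the 45 genes ranged from 12.7 to 14.6 normalised CPM over the heat-treated RTX430 libraries at ZT6, against 19.6 to 28.3 over their controls. At ZT9 it was 10.9 to 14.8 in heat and 21.1 to 21.6 in controls, and at ZT15 12.1 to 22.1 in heat and 25.1 to 29.6 in controls. In Macia it was 10.7 to 13.8 in heat and 18.3 to 21.2 in controls at ZT6, 13.4 to 16.1 and 22.5 to 24.8 at ZT9, and 17.2 to 19.4 and 30.4 to 33.9 at ZT15. The heat-treated and control libraries did not overlap in any of these 6 comparisons. At ZT1, a contrast that the rule held near 0, the ranges were 7.43 to 10.6 in heat and 11.1 to 12.1 in controls for RTX430, and they overlapped for Macia, at 6.04 to 12.0 in heat and 7.74 to 9.75 in controls.

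By log2 fold change, 35, 38 and 31 of the 45 genes were below 0 under heat at ZT6, ZT9 and ZT15 in RTX430, and 43, 33 and 35 in Macia. Among all 18648 genes tested in the heat experiment the shares below 0 were 51.5%, 54.2% and 56.4% in RTX430 and 55.4%, 57.7% and 55.7% in Macia. The median log2 fold changes of the 45 genes were -0.80, -0.62 and -0.86 in RTX430, and -0.45, -0.56 and -0.55 in Macia. The medians over all genes lay between -0.18 and -0.03. A total of 28 of the 45 genes were below 0 in all 6 contrasts, against 23.04% of all genes, and 1 was above 0 in all 6, against 16.9%. The spread among the 45 was wide, from -2.94 to 3.01 in RTX430 at ZT6 and from -3.96 to 1.74 in Macia at ZT15. The 2 highest values in RTX430 at ZT6, 3.01 and 2.41, did not pass the test. Scaling by library totals moved the median of all genes by -0.39 in RTX430 and -0.25 in Macia at ZT15, and by less than 0.1 at ZT6 and ZT9.

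Fewer genes passed the test one by one. In RTX430 11 genes were called at ZT6, all lowered, where 5.37% of all genes tested were called as lowered and 7.93% as raised. At ZT9 3 were called, all lowered, where 1.05% of all genes were called as lowered and 3.02% as raised. At ZT15 26 were called, 22 as lowered and 4 as raised, where 19.2% of all genes were called as lowered and 16.3% as raised. With scaling by library totals the split at ZT15 was 26 lowered and 1 raised, where 40.5% of all genes were called in either direction. The 3 heat-treated libraries all lay below the 3 controls for 19 genes at ZT6, 9 at ZT9 and 22 at ZT15, against 14.6%, 8.35% and 24.8% of all genes. Single libraries bore on these counts. At ZT6 the count without stress replicate 1 was 4. At ZT15 the count without stress replicate 1 was 17, of which 14 were lowered. At ZT9 the count was 0 without control replicate 2 and 1 without control replicate 3 or stress replicate 3, and in a fit to the libraries of that contrast alone it was 0, with 10 genes at an unadjusted p under 0.05. Without RTX430 control replicate 1 at ZT15, the library with genes of other labels, 19 genes were called at that time, 17 as lowered and 2 as raised.

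In Macia 1 gene was called at ZT6, as lowered, where 1.65% of all genes were called as lowered and 3.52% as raised. At ZT9 10 were called, 9 as lowered and 1 as raised, where 4.43% and 7.65% of all genes were. At ZT15 11 were called, all lowered, where 8.74% of all genes were called as lowered and 10.7% as raised. All 3 heat-treated libraries lay below all 3 controls for 11 genes at ZT6, 19 at ZT9 and 18 at ZT15, against 11.8%, 19.1% and 18.4% of all genes. The count at ZT6 was 0 when any of 5 of its 6 libraries was left out and 2 without stress replicate 3. The count at ZT9 was 6 without control replicate 1 or control replicate 2, and 2 without stress replicate 1 or stress replicate 3. With scaling by library totals it was 7, all lowered. Of all genes 9.89% were called in either direction under that scaling, a share that is not split here. At ZT15 a fit to the libraries of the contrast alone called 6. Shares of all genes are again not given for the fits with fewer libraries.

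**Figure D4:**
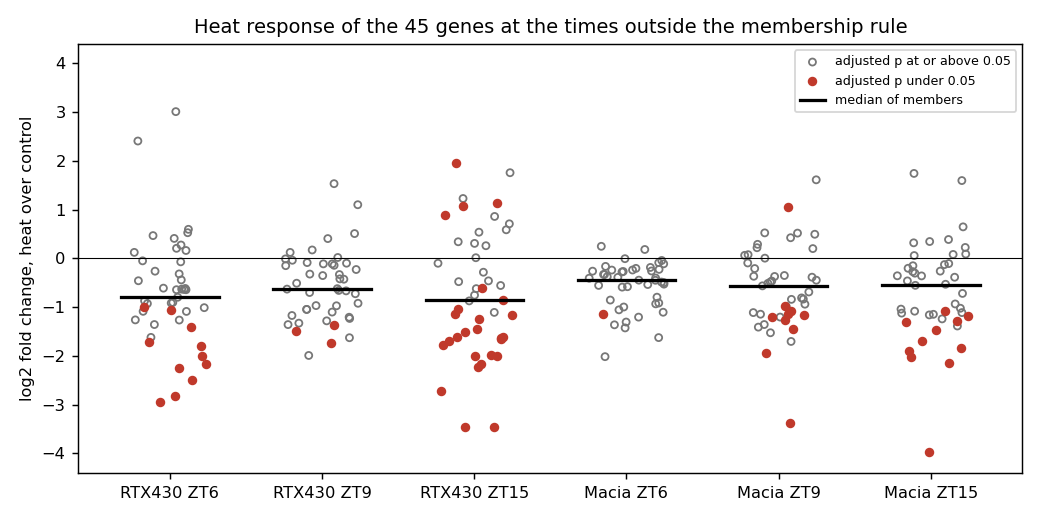
The log2 fold change of heat-treated over control leaves (vertical axis) for each of the 45 genes in the 6 heat contrasts that the membership rule did not use; filled red points passed an adjusted p of 0.05 in edgeR's quasi-likelihood test, open points did not, and black bars are medians. The medians run from -0.86 to -0.45, and filled points below 0 outnumber those above 0 in every contrast. In Macia at ZT6 this is 1 point against 0, and in RTX430 at ZT9 it is 3 against 0.

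Over the 6 contrasts, 25 of the 45 genes were called as lowered at least once and never as raised, 4 as raised at least once and never as lowered, and 16 were never called. The shares of all 18648 genes were 23.9% lowered only, 19.9% raised only and 56.0% never called, against 55.6%, 8.89% and 35.6% of the 45. Of the 45 genes, 25 were lowered at some time in RTX430 and 12 in Macia. All 12 of the Macia list were also in the RTX430 list, which is 48% of the RTX430 list and 100% of the Macia list. For all genes the overlap was 38.4% of the RTX430 list and 73.4% of the Macia list.

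By edgeR's log2 fold change, Sobic.003G320600 and Sobic.004G075800 were the most lowered of the 45 genes in RTX430 at ZT15. Their order reversed on the median-centred log2 scale, with differences of -3.17 and -3.39. Sobic.003G320600 held 2.69, 5.25 and 5.53 normalised CPM in heat-treated leaves, against 55.2, 66.8 and 29.3 in controls. The groups did not overlap, and the log2 fold change was -3.47 (SE 0.56, adjusted p 7.9e-06 by edgeR). In Macia at ZT9 the same gene held 2.79, 15.4 and 5.65 normalised CPM in heat-treated leaves, against 23.7, 27.6 and 30.5 in controls, with a log2 fold change of -1.93 (SE 0.54, adjusted p 0.015 by edgeR). That call was lost without stress replicate 1 or stress replicate 3. Its cold response at ZT1 was a description of the rule, with 37, 38.7 and 31.1 normalised CPM in cold-treated RTX430 leaves and 6.91, 6.50 and 8.85 in controls.

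Sobic.004G075800 held, in RTX430 at ZT15, 5.65, 24.9 and 2.05 normalised CPM in heat-treated leaves, against 189, 98.1 and 70.6 in controls. The groups did not overlap although each was widely spread, and the log2 fold change was -3.45 (SE 0.73, adjusted p 0.00033 by edgeR). Without control replicate 1, the library with genes of other labels, it was -2.93 and still passed.

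In RTX430 at ZT6 the called genes most lowered by edgeR's log2 fold change were Sobic.010G245100 and Sobic.009G100800. Sobic.010G245100 held 0.280, 0.554 and 4.83 normalised CPM in heat-treated leaves, against 4.46, 19.6 and 17.9 in controls. The highest heat-treated library exceeded the lowest control, and the log2 fold change was -2.94 (SE 0.79, adjusted p 0.011 by edgeR). Some heat-treated libraries held very low levels of this gene, so the size of that fold change is uncertain. Sobic.009G100800 held 13.5, 20.0 and 21.5 normalised CPM in heat-treated leaves and 62.5, 184 and 141 in controls. These groups did not overlap, and the log2 fold change was -2.83 (SE 0.71, adjusted p 0.0059 by edgeR). Both calls were lost without stress replicate 1. The call of Sobic.010G245100 was also lost in a fit to the libraries of that contrast alone.

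At ZT9 in RTX430, Sobic.003G296300 held 15.4, 11.5 and 10.1 normalised CPM in heat-treated leaves, against 23.4, 46.8 and 32.95 in controls. The groups did not overlap, and the log2 fold change was -1.48 (SE 0.33, adjusted p 0.0045 by edgeR). It was also called as lowered at ZT6 and ZT15 in RTX430 and at ZT9 and ZT15 in Macia. Its call at ZT9 in RTX430 was lost without control replicate 2 or stress replicate 3, and in a fit to those libraries alone. Sobic.010G158100 had a log2 fold change of -1.73 at that time (SE 0.50, adjusted p 0.037 by edgeR), on low levels of 1.01, 0.607 and 1.92 normalised CPM in heat-treated leaves, against 6.44, 3.47 and 3.93 in controls. Its call was lost whichever of the 6 libraries was left out. It was lost as well with library totals, without the filter on low counts, and in a fit to those libraries alone.

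In Macia at ZT15, Sobic.007G071000 held 0, 1.08 and 0.847 normalised CPM in heat-treated leaves, against 8.997, 15.2 and 9.85 in controls. The groups were far apart, and the log2 fold change was -3.96 (SE 0.67, adjusted p 2.8e-05 by edgeR). The heat-treated levels were very low, so the size of that fold change is uncertain. At ZT9 in Macia the same gene had 0, 1 and 1 counts in its heat-treated libraries, against control levels of 1.98, 2.04 and 1.63 normalised CPM. It was called as lowered there, with no fold change given because of the low counts, and the call was lost without stress replicate 3.

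Sobic.001G541700 was second among the genes called as lowered in Macia at ZT15 by edgeR's log2 fold change, with 1.94, 13.6 and 4.52 normalised CPM in heat-treated leaves and 33.2, 27.03 and 32.1 in controls. The groups did not overlap, and the log2 fold change was -2.14 (SE 0.56, adjusted p 0.0050 by edgeR). The call was lost in a fit to the libraries of that contrast alone. In Macia at ZT6 the single called gene was Sobic.005G046500, with 12.7, 8.0 and 16.7 normalised CPM in heat-treated leaves and 23.7, 36.5 and 22.8 in controls. Its log2 fold change was -1.13 (SE 0.34, adjusted p 0.042 by edgeR), and the call was lost without any of 5 of the 6 libraries, with library totals, without the filter on low counts and in a fit to those libraries alone. This gene was called as lowered in 5 of the 6 heat contrasts, as were 2 others of the 45.

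A few genes went the other way under heat, and they were named after their values were seen. Sobic.010G214000, the member with the highest mean CPM over the 96 libraries, held 275, 405 and 168 normalised CPM in heat-treated RTX430 leaves at ZT15, against 62.3, 78.3 and 76.6 in controls. The groups did not overlap, and the log2 fold change was 1.97 (SE 0.35, adjusted p 3.1e-05 by edgeR). In Macia at ZT15 it held 90.0, 88.2 and 190 normalised CPM in heat-treated leaves and 122, 78.7 and 80.1 in controls, groups that overlapped. The other 3 genes raised in RTX430 at ZT15 had log2 fold changes of 1.13, 1.08 and 0.89. Sobic.008G124500, the last of these, was also the gene raised in Macia at ZT9, with 83.7, 82.3 and 90.7 normalised CPM in heat-treated leaves, against 36.5, 37.9 and 49.1 in controls. Its log2 fold change there was 1.05 (SE 0.33, adjusted p 0.031 by edgeR).

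The heat responses of the 2 labels were compared directly by the interaction of label and heat. None of the 45 genes was called by edgeR at ZT6, ZT9 or ZT15, and of all genes 0%, 0.00536% and 0.0858% were. At an unadjusted p under 0.05 there were 6, 0 and 5 of the 45, against 8.48%, 3.01% and 9.63% of all genes. DESeq2 also called none of the 45. Leaving out Macia stress replicate 3 at ZT15 gave 1 call. The smallest adjusted p among the 45 was that of Sobic.010G214000 at ZT15, where the response in Macia minus that in RTX430 was -1.58 on the log2 scale (SE 0.48, adjusted p 0.22 by edgeR). For Sobic.003G320600 the same difference at ZT15 was 1.99 (SE 0.73, adjusted p 0.35 by edgeR).

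Time of day among untreated leaves was tested over ZT6, ZT9 and ZT15 of the heat experiment. In Macia 16 of the 45 genes were called, where 23.4% of all genes were, and in RTX430 11 were, where 26.2% of all genes were. As shares of the 45 these are 35.6% in Macia and 24.4% in RTX430, the second near the level of all genes. Of the 16 called in Macia, 13 had their highest control mean at ZT15, against 36.2% of all called genes, and of the 11 called in RTX430, 7 did, against 39.2%. These controls are also the ones against which the heat responses were measured. Between neighbouring times the clearest step was from ZT9 to ZT15 in Macia, where 8 genes were called as higher at ZT15, against 3.26% of all genes. All 3 ZT15 libraries exceeded all 3 ZT9 libraries for 24 genes, against 16.2% of all. In RTX430 the same step gave 2 genes called as higher, against 3.52% of all, and 8 without overlap, against 11.7%. The difference between the labels was not tested. Without RTX430 control replicate 1 at ZT15, 9 genes were called in RTX430. Scaling by library totals called 28 genes in Macia and 21 in RTX430, where 38.5% and 41.6% of all genes were called, and it moved the median of all genes by 0.14 to 0.79 between these control times, so the directions hold relative to the bulk of the transcripts.

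Sobic.010G245100 showed a steep climb in both labels. Its control level in Macia was 13.7 ± 7.82 normalised CPM at ZT6, 37.8 ± 2.07 at ZT9 and 93.5 ± 13.6 at ZT15 (SD, n = 3 each; adjusted p 0.0044 by edgeR for equal levels). In RTX430 it was 13.97 ± 8.28 at ZT6, 56.99 ± 30.1 at ZT9 and 95.4 ± 3.51 at ZT15 (SD, n = 3 each; adjusted p 0.0068 by edgeR). Sobic.009G024600 did not pass this test, with 78.9 ± 5.90, 61.1 ± 11.6 and 80.3 ± 12.3 normalised CPM in Macia (SD, n = 3 each; adjusted p 0.63 by edgeR). Sobic.010G214000 went down over the same times. In Macia it averaged 316 ± 62.5 normalised CPM at ZT6, 136 ± 24.8 at ZT9 and 93.7 ± 24.8 at ZT15 (SD, n = 3 each; adjusted p 0.00037 by edgeR), and in RTX430 445 ± 144, 219 ± 41.9 and 72.4 ± 8.80 (SD, n = 3 each; adjusted p 2.7e-06 by edgeR).

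Between the control leaves of the 2 labels, averaged over ZT6, ZT9 and ZT15, 5 of the 45 genes were called, where 11.3% of all genes were. As a share of the 45 this is 11.1%, near the level of all genes. Sobic.005G046500 was higher in Macia than in RTX430 by 0.98 on the log2 scale (SE 0.19, adjusted p 0.00031 by edgeR). Sobic.009G168700 was also called as higher in Macia (adjusted p 0.029 by edgeR). No fold is given for it, since its RTX430 controls at ZT9 held only 1, 2 and 3 counts. At ZT9 it had 17.3, 13.5 and 6.91 normalised CPM in Macia controls and 0.586, 0.867 and 0.492 in RTX430 controls. At ZT15 it had 20.8, 11.4 and 8.21 normalised CPM in Macia controls and 6.58, 10.2 and 18.8 in RTX430 controls, and the groups overlapped. Sobic.006G201700 and Sobic.009G100800 were lower in Macia, with log2 differences of -1.86 (SE 0.40, adjusted p 0.0011 by edgeR) and -1.45 (SE 0.38, adjusted p 0.0083 by edgeR). 1 more gene was lower, by a log2 difference of -1.35. The genes of this comparison were named after their values were seen.

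By the number that opens each identifier, which in this style names the chromosome, the 45 genes came from all 10 sorghum chromosomes, with 10 on chromosome 3, 9 on chromosome 1 and 6 on chromosome 10. The 16216 kept genes included 2439, 3025 and 1334 on those chromosomes. In the row order of the deposited counts, 1 pair of the 45 stood in adjoining rows, and 2 pairs, that one included, within 5 rows of each other. No share over all kept genes was worked out for these pairs.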

How the data were processed

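Per the labels' protocols, polyA RNA of sorghum leaves was made into libraries with 12 PCR cycles and sequenced as single-end reads of 75 nt. The authors deposited raw counts for 34129 genes in 96 libraries, whole numbers with a different total in each. HISAT2 and DESeq2 are listed in the submitters' processing notes, without a version or a role. The counter, genome build, annotation and use of strand are not given in the sources used here, so genes that share reads with a close copy or an overlapping gene are uncertain. PCR copies were not told apart, so floors of 3 counts cover counting error only. The earliest time is ZT0 in the treatment text and ZT1 in the sample labels, which were used. Per the labels, the replicates are biological.

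Each experiment was fitted apart with edgeR 4.0.16 in R 4.3.3: means of 16 groups over 48 libraries, TMM factors, filterByExpr (minimum count 10, minimum total 15; 18248 genes in cold and 18648 in heat), quasi-likelihood F-tests, and Benjamini-Hochberg adjustment over all genes, with calls under 0.05. A gene's tests in the heat experiment share the fit of all its groups. The functions were tested on simulated data. Alternatives were DESeq2 1.42.0, RLE factors, library totals, no filter, only the libraries concerned, the replicate number as a block, leaving out each library in turn, and other settings of the membership rule. Choosing the members from TMM-scaled CPM and choosing them without SC224 control replicate 1 at ZT1 were added after seeing the data.

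The members and lists were chosen with earlier results of these data known. The gene names that would be needed for function lists, leaf marker genes and promoter motifs, all planned, could not be used: 0 of the 34129 identifiers matched the reference table, and the deposited file does not pair them with names. For that reason at most 2 genes raised and 2 lowered are named in a comparison. They are the 2 with the largest smaller cold difference at ZT1 and, for each heat contrast, the 2 called genes with the largest absolute log2 fold change; others are marked where they appear.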

Additional observations from a re-analysis of the deposited data

How the results depend on the processing

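The number of genes that met the rule was 60 from TMM-scaled CPM without median centring (36 shared with the 45), 90 from library totals without centring (20 shared), 52 and 40 with pseudocounts of 0.5 and 2, 49 and 44 with mean CPM minimums of 1 and 5, and 40 to 51 when each of the 24 ZT1 libraries was left out, with 16 genes found in all 24. Of the counts of calls and of members under the other settings, 219 stayed within 1.5 times the value reported and 27 did not. Counts of 0 that stayed 0 were among the 219. For single genes 152 kept their call, 27 lost it and 0 reversed. Fits to only the libraries concerned gave 13 calls for cold in SC224 at ZT1 (39 reported), 6 for heat in Macia at ZT15 (11) and 0 for heat in RTX430 at ZT9 (3). DESeq2 gave 2 for heat in Macia at ZT6 (1) and 5 for RTX430 at ZT9 (3). For Macia at ZT6 library totals, no filter on low counts and members chosen from TMM-scaled CPM each gave 0. Library totals gave 28 and 21 for time of day in Macia and RTX430 (16 and 11). The cause was not tested.

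With 1 library left out, calls ranged from 26 to 32 for cold in RTX430 and from 28 to 38 in SC224 at ZT1. Under heat they ranged from 4 to 11, 0 to 4 and 17 to 24 in RTX430 at ZT6, ZT9 and ZT15, and from 0 to 2, 2 to 10 and 8 to 15 in Macia. They ranged from 0 to 1 for the interaction at ZT15, with 0 in every such fit at ZT6 and ZT9, from 12 to 17 and 9 to 12 for time of day in Macia and RTX430, and from 4 to 6 for Macia against RTX430. Replicate numbers did not pair the libraries: correlations of same-numbered deviations ran from -0.455 to 0.586, and in 1 of 16 comparisons every pair was over 0.1. With the replicate number as a block, heat calls were 10, 3 and 26 in RTX430 and 1, 9 and 11 in Macia, with no other count moved by over 1.5 times. Depth limits the genes with a group at 3 counts or fewer per library.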
